A study of Mus musculus with 12 samples.

Results

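The genes described here are the 10 genes for enzymes that remove hydrogen peroxide, lipid peroxides or superoxide: the peroxiredoxins Prdx1, Prdx2, Prdx3, Prdx4, Prdx5 and Prdx6, the glutathione peroxidases Gpx1 and Gpx4, the catalase Cat and the superoxide dismutase Sod1. They were chosen by name, with no measured value in the rule but with earlier results of these data known. All 10 were found among the 32699 genes of the deposited tables. All 10 were also among the 8273 genes with a CPM (a gene's count scaled to a fixed library total) over 10 in at least 2 libraries, and each was above that minimum in all 12 libraries. None of them therefore entered the tests through the group in which it was high.

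Peroxiredoxins are thiol peroxidases: a cysteine of the enzyme is oxidised by peroxide and is then reduced again, for most members by thioredoxin and for Prdx6 by glutathione. Gpx1 and Gpx4 are selenoproteins that draw on glutathione, catalase splits hydrogen peroxide without an outside electron donor, and Sod1 turns superoxide into hydrogen peroxide. Red cells hold large amounts of peroxiredoxin 2, catalase and Gpx1, and oxidation of haemoglobin is a known source of superoxide in them.

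Poly(A) RNA of G1E-ER4 cells was sequenced in 4 groups of 3 libraries. G1E-ER4 is a clone of a mouse erythroid progenitor line that lacks Gata1 and was derived from embryonic stem cells, and every group carries the transcription factor GATA-1 joined to the estrogen receptor (GATA-1ER), which β-estradiol (E2) activates. The groups were Ctrl (no treatment), TMG (10 µM Thiamet-G for 30 h, an inhibitor of the enzyme OGA, which takes O-GlcNAc off proteins), E2 (1 µM for 30 h) and TMG_E2 (both agents at these doses for 30 h). The labels give no time for the untreated Ctrl cells, so any difference in time in culture cannot be told apart from treatment in the comparisons with Ctrl. All 4 groups were grown with erythropoietin, stem cell factor and puromycin. The series asks whether a disturbed O-GlcNAc balance alters the erythroid transcription network during differentiation of these cells. Nothing in the labels says whether the libraries of a group came from separate cultures on separate days, so the spread behind the p-values may be a technical one.

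The promoters of these genes were searched for motifs, and the stretches with a match are shown, whatever the change of the gene with E2. In each stretch 10 bases stand on either side of a searched motif, the motif is in capitals, and the sequence runs 5′ to 3′ along the gene's strand (RefSeq, GRCm38.p6).
Prdx1, chr4:116685456-116685484, + strand: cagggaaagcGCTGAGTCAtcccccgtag
Sod1, chr16:90220696-90220724, + strand: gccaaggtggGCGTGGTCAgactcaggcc
Prdx3, chr19:60874613-60874640, - strand: tttgcataaaCCACACCCctcctccacc
Prdx4, chrX:155338497-155338522, - strand: agcttgcgccCACGTGgcggaggggc
Gpx4, chr10:80053410-80053435, + strand: gcgcagttgcTGATAAcaacaaactc
The capitals in Prdx1 and Sod1 match TGACNNNGC, the core of the antioxidant response element, on the opposite strand, 133 and 56 bases before the start. Prdx3 holds CCACACCC, the motif of the erythroid factor KLF1, 92 bases before its start, and Prdx4 holds the E-box CACGTG 52 bases before a start that lies inside its longest annotated span. Gpx4 holds TGATAA, a form of the GATA motif, 145 bases before an annotated start and 239 before another.

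RefSeq promoter sequences were matched for 9 of the 10 genes, and the 250 bases before each start were searched on both strands. Among these 9 genes, AGATAA was found in 0, TGATAA in 1, TGACNNNGC in 2, CCACACCC in 1 and CACGTG in 1. Over 32851 promoters of the same length, the shares with a match were 9.99%, 7.94%, 10.16%, 3.2% and 6.02%, in that order. These shares count promoters and not genes, and Gpx4 had several annotated starts, some of them with no motif in the window. The windows of Prdx2, Prdx5, Gpx1 and Cat held none of these motifs, and the motifs do not overlap each other in the stretches printed. The promoter of Prdx6 was not analysed here. A match describes the letters in a window and is not a measured binding site.

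The genes lie apart in the genome, on 9 chromosomes, with Prdx3 and Prdx5 sharing chromosome 19. In GRCm38.p6 coordinates, Prdx2 spans positions 84969622 to 84974811 of chromosome 8 (+ strand), Cat spans 103453904 to 103485153 of chromosome 2 (- strand) and Gpx1 spans 108339080 to 108340342 of chromosome 9 (+ strand). Prdx1 spans 116685599 to 116700000 of chromosome 4 (+ strand), Prdx4 spans 155323918 to 155342272 of chromosome X (- strand) and Prdx6 spans 161240112 to 161251210 of chromosome 1 (- strand). On chromosome 19 (- strand), Prdx3 spans 60864066 to 60874538 and Prdx5 spans 6906697 to 6910106. Gpx4 spans 80047166 to 80056439 of chromosome 10 (+ strand) and Sod1 spans 90220762 to 90226333 of chromosome 16 (+ strand). Set against gene spans of GENCODE M21, the span of Prdx2 given here overlaps Rnaseh2a and Junb on the opposite strand, Prdx5 overlaps Trmt112 and Sod1 overlaps Scaf4. The library kit keeps strand, but no source used here gives the strand setting of the counting, so the counts of Prdx2, Prdx5 and Sod1 are uncertain to that extent. Near copies elsewhere in the genome, nearly all annotated as pseudogenes, with at least 90% identity over at least 300 bases exist for Prdx1 (3), Prdx2 (2) and Gpx4 (2). None of these 7 is among the genes of the deposited tables, and how reads shared with them were treated is not known for these genes.

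Library totals ran from 17589380 to 23178721 expected counts, at which 3 counts correspond to 0.129 to 0.171 CPM. E2 dominated the variation, with 94.2% of the variance on the axis that separates libraries with and without E2. TMG_E2 replicate 3 stood apart on the next axis (-14.74, against 2.665 and -0.5362 for the other two libraries of its group) and had the lowest scaling factor (0.9451). The 3 TMG_E2 libraries also differed more from each other than libraries of other groups, with chi-square values per degree of freedom of 8.66 to 13.1. Results that rest on TMG_E2 replicate 3 are given with and without it. The labels call the cells embryonic stem cells, whereas the stem cell markers Pou5f1, Sox2, Zfp42 and Dppa5a were at 0 in all libraries and Nanog reached at most 0.272 CPM. Summed CPM of 10 erythroid markers ranged from 1850 to 1910 in Ctrl and from 39900 to 42900 in E2. Most of the sum in E2 came from Hbb-bs (mean 19200 CPM) and Hba-a2 (15300 CPM). Each of the 10 had a higher mean in E2 than in Ctrl, but Tal1 only went from 267 to 301 CPM and Epor from 94.9 to 142 CPM. Scaling by library size alone, without TMM (trimmed mean of M-values), put the median log2 change of all genes at -0.0991 in E2 vs Ctrl and -0.108 in TMG_E2 vs TMG. It turned the split of genes called higher and lower from 3432 and 3406 to 2871 and 3952 in E2 vs Ctrl, and from 3386 and 3455 to 2893 and 4005 in TMG_E2 vs TMG. In TMG vs Ctrl it turned 249 and 177 into 179 and 232, and in TMG_E2 vs E2 464 and 591 into 348 and 764.

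Levels of different genes were compared on the deposited TPM, which accounts for transcript length. Gpx1 was the most abundant of the 10 in every group, at 1171 ± 38.5 TPM in Ctrl and 2139 ± 64.6 TPM in E2 (mean ± SD, n = 3). Sod1 came next in Ctrl, at 822 ± 17.4 TPM, followed by Prdx2 at 413 ± 7.52 TPM. Prdx2, Gpx4 and Prdx3 lay close together in Ctrl, and their order below Prdx2 was 380 ± 6.51 TPM for Gpx4 and 373 ± 4.62 TPM for Prdx3, whose library ranges of 372.52 to 385.18 and 369.01 to 378.24 overlapped. Prdx4, the peroxiredoxin of the endoplasmic reticulum, was the lowest of the 10 in all 4 groups, at 89.0 ± 1.45 TPM in Ctrl and 29.0 ± 1.34 TPM in E2. It was next to Cat in Ctrl, at 93.0 ± 0.803 TPM, and the library ranges of Cat (92.4 to 93.93 TPM) and Prdx4 (87.92 to 90.66 TPM) did not overlap.

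With E2 the order changed at the top. Prdx2 stood above Sod1 in each E2 library, at 1537 ± 62.9 TPM against 667 ± 12.5 TPM. The share of Prdx2 in the summed TPM of the 10 genes was 10.2% ± 0.299 in Ctrl, 10.8% ± 0.479 in TMG, 24.0% ± 0.483 in E2 and 21.9% ± 0.200 in TMG_E2. The share of Sod1 was 20.3% ± 0.266 in Ctrl and 10.4% ± 0.166 in E2. Summed over the 10 genes, the level was 4056 ± 51.0 TPM in Ctrl, 4212 ± 60.4 TPM in TMG, 6393 ± 135 TPM in E2 and 6487 ± 171 TPM in TMG_E2. These levels per length were described and not tested. TPM is a share of all transcripts in a library, and Hbb-bs and Hba-a2 together took 0.092% to 0.103% of it in Ctrl and 11% to 11.8% in E2.

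**Figure D1:**
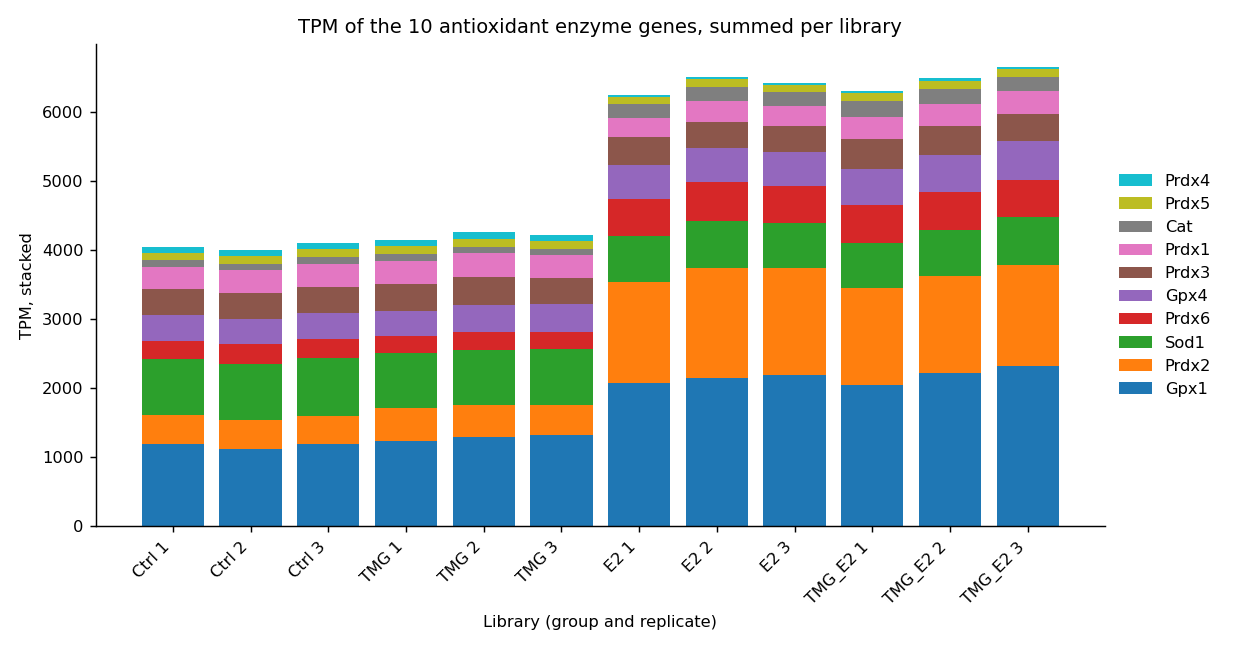
Stacked TPM of the 10 genes in each of the 12 libraries; each bar is a library (group and replicate) and each colour a gene. The bars of the 6 libraries with E2 lie above those of the 6 without, and the segments of Prdx2 and Gpx1 account for most of the added height.

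E2 vs Ctrl asked how the genes stood after GATA-1ER was activated. Prdx2, Cat, Prdx6 and Gpx1 each rose more than 2-fold, Gpx4 rose 1.49-fold and Prdx3 1.18-fold. Prdx4 fell to 0.375 of its Ctrl level and Sod1 to 0.919 of it. Prdx1 and Prdx5 did not pass the threshold. A gene was called when its adjusted p from edgeR's quasi-likelihood test, corrected over 8273 genes by the Benjamini-Hochberg method, was under 0.05. Of the 10 genes, 6 were called higher and 2 lower. Over all 8273 genes, 82.7% were called (41.5% higher and 41.2% lower), so a call as such does not set these genes apart. Their median log2 change was 0.41, against -0.00076 over all genes tested.

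Prdx2, a cytosolic peroxiredoxin, had the largest change of the 10. Its TMM-scaled CPM was 343, 346 and 333 in the Ctrl libraries and 1382, 1521 and 1456 in the E2 libraries. The lowest E2 library was far above the highest Ctrl library. The log2 change was 2.09 ± 0.05 (SE; adjusted p = 9.59e-17, edgeR), a 4.27-fold difference. Rnaseh2a, which overlaps it on the opposite strand and encodes the catalytic subunit of ribonuclease H2, went from 65.6 ± 1.33 to 123 ± 2.69 CPM (SD, n = 3), a log2 change of 0.90. Junb, the other overlapping gene, had a log2 change of 0.51. The part of reads from these genes in the Prdx2 value was not tested.

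Cat, whose enzyme works in peroxisomes, measured 140, 141 and 142 CPM in Ctrl and 343, 360 and 338 CPM in E2. All E2 libraries were far above the Ctrl libraries, which differed from each other by a few CPM. Its log2 change was 1.30 ± 0.03 (adjusted p = 5.31e-16, edgeR), or 2.46-fold.

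Prdx6, the peroxiredoxin that is reduced by glutathione, measured 368, 395 and 383 CPM in Ctrl and 852, 907 and 868 CPM in E2. Its libraries fell into separate ranges, with a log2 change of 1.20 ± 0.04 (adjusted p = 1.24e-14, edgeR). Gpx1, the abundant cytosolic glutathione peroxidase, measured 657, 628 and 660 CPM in Ctrl and 1305, 1372 and 1394 CPM in E2. Here too all E2 libraries were above all Ctrl libraries, with a log2 change of 1.07 ± 0.06 (adjusted p = 1.24e-11, edgeR).

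Gpx4, which reduces lipid hydroperoxides in membranes, measured 190, 187 and 190 CPM in Ctrl and 286, 284 and 276 CPM in E2. Each E2 library was above each Ctrl library, and the log2 change was 0.58 ± 0.05 (adjusted p = 2.2e-08, edgeR). Its TGATAA stretch, printed above, was the only GATA match among the windows searched. Prdx3, the mitochondrial peroxiredoxin, measured 296, 304 and 305 CPM in Ctrl and 362, 356 and 354 CPM in E2. This is a small difference with no overlap, at a log2 change of 0.24 ± 0.03 (adjusted p = 1.96e-06, edgeR), or 0.145 with library size alone (0.000641).

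Prdx4 moved the other way. It measured 45.1, 47.0 and 45.5 CPM in Ctrl and 16.1, 17.8 and 17.6 CPM in E2, so that the groups lay far apart. Its log2 change was -1.42 ± 0.06 (adjusted p = 8.57e-13, edgeR), a 2.67-fold lower level. Sod1 measured 252, 255 and 262 CPM in Ctrl and 233, 242 and 232 CPM in E2. The E2 libraries were all below the Ctrl libraries by a small gap, with a log2 change of -0.12 ± 0.04 (adjusted p = 0.0195, edgeR). This call was lost without Ctrl replicate 3 (adjusted p = 0.0771), E2 replicate 1 (0.0549) or E2 replicate 3 (0.0753), and with library size alone the change was -0.22 (8.94e-05).

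Prdx1, a cytosolic peroxiredoxin, measured 256, 262 and 265 CPM in Ctrl and 251, 272 and 264 CPM in E2. The ranges overlapped, and the log2 change was 0.01 with a 95% interval from -0.08 to 0.10 (adjusted p = 0.823, edgeR). Under scaling by library size alone the sign turned and the call changed (-0.09, adjusted p = 0.0408). On the deposited TPM, Prdx1 was at 330 ± 5.02 in Ctrl and 290 ± 9.52 in E2. Prdx5, found in mitochondria, peroxisomes and cytosol, measured 34.7, 36.9 and 38.6 CPM in Ctrl and 38.0, 42.8 and 37.3 CPM in E2. These ranges overlapped as well, at a log2 change of 0.10 with an interval from -0.02 to 0.22 (adjusted p = 0.11, edgeR). It was called higher only without E2 replicate 3 among the 12 left-out libraries (0.14, adjusted p = 0.0415).

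**Figure D2:**
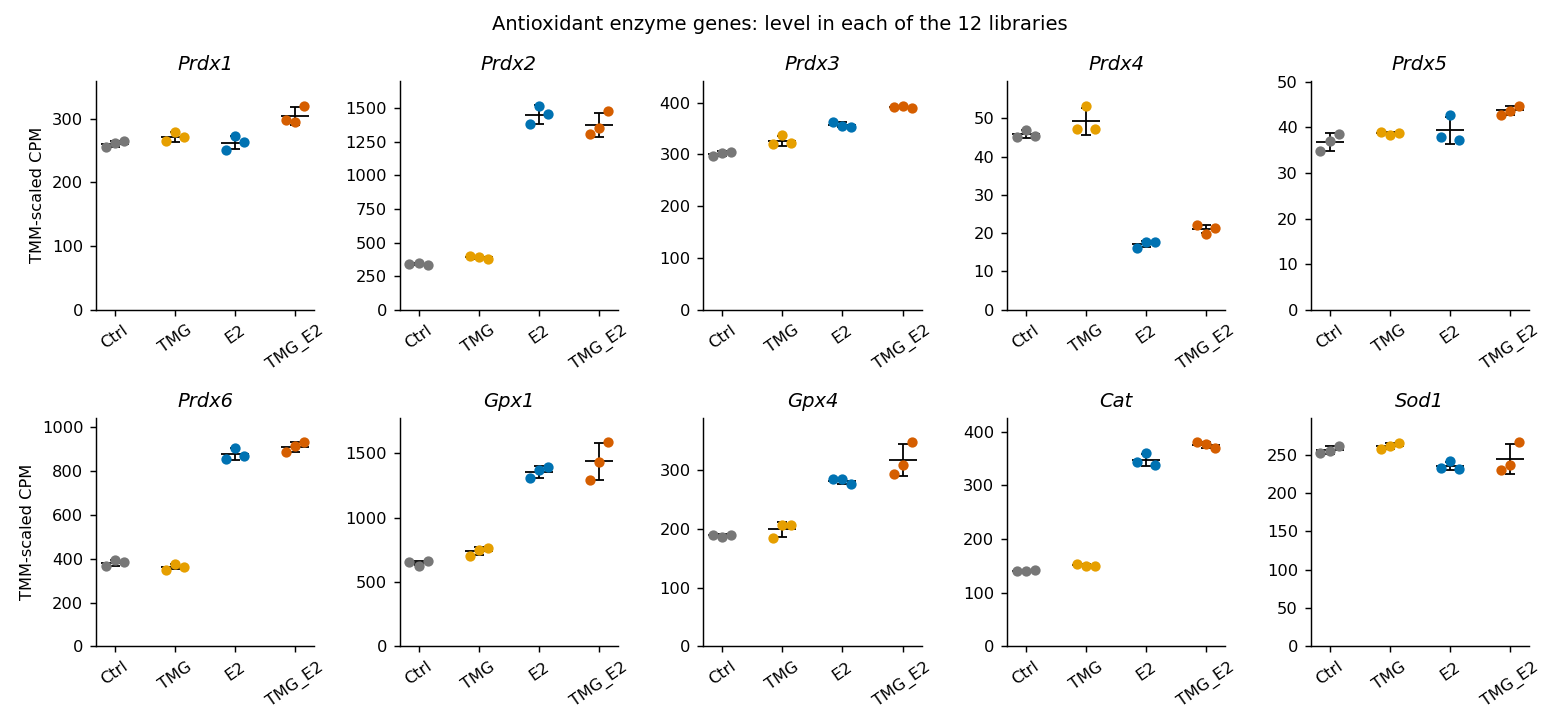
TMM-scaled CPM (linear axis from 0) of each gene in the 12 libraries, by group; points are libraries, the line is the mean and the bars are ± SD (n = 3). Prdx2, Prdx3, Prdx6, Gpx1, Gpx4 and Cat are higher in both groups with E2 and Prdx4 is lower there, while Prdx1, Prdx5 and Sod1 overlap between some groups with and without E2.

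Other measures moved along with E2. The summed CPM of 8 mast cell markers ranged from 79.6 to 104 in Ctrl and from 0.27 to 0.878 in E2; of these, Cpa3, Il1rl1 and Ms4a2 passed the filter, while Mcpt4, Mcpt8 and Tpsb2 were at 0 in all libraries. With TMG the sums ranged from 79.2 to 95.3, and with both agents from 0.308 to 0.618. The part of such a shift in the results with E2 was not tested. In bulk RNA, a change in the number of cells of a type and a change in RNA per cell cannot be told apart. The groups did not overlap for 8 of the 10 genes in E2 vs Ctrl (6 higher, 2 lower), against 85.9% of all genes tested (42.9% higher and 43% lower).

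Of 56 tested partner genes of these enzymes, from 6 lists, 17 were called higher and 29 lower in E2 vs Ctrl, together 82.1%. Over all genes 82.7% were called (41.5% higher and 41.2% lower), so the counts that follow describe the lists and set none of them apart. Of 15 thioredoxin and glutaredoxin partners tested, 7 were called higher and 6 lower. Srxn1, the sulfiredoxin that restores overoxidised peroxiredoxins, rose from 20.1 ± 0.611 to 103 ± 3.23 CPM (log2 change 2.36, adjusted p = 5.38e-18). Glrx5, a mitochondrial glutaredoxin of iron-sulfur cluster assembly, rose by 1.27 on the log2 scale. Txnrd3, a thioredoxin glutathione reductase, and Nxn, nucleoredoxin, had log2 changes of -1.35 and -1.64. The median log2 change of this list was 0.13.

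In the list for glutathione synthesis and recycling, 2 of 7 tested genes were called higher and 3 lower. Gclc, the catalytic subunit of the enzyme that starts glutathione synthesis, rose from 92.0 ± 2.93 to 194 ± 4.50 CPM (log2 change 1.08, adjusted p = 1.97e-14). Gsr, which regenerates glutathione, fell from 149 ± 2.52 to 83.8 ± 3.54 CPM (log2 change -0.82, adjusted p = 4.24e-11). Chac2, which degrades glutathione, and Slc7a11, the cystine transporter, had log2 changes of 0.50 and -0.74, both called. The median of the list was -0.0037.

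Of 10 genes for NADPH supply, 3 were called higher and 7 lower, with a median log2 change of -0.53. Idh2, mitochondrial isocitrate dehydrogenase, fell from 79.6 ± 1.92 to 20.2 ± 0.687 CPM (log2 change -1.98, adjusted p = 5.07e-15), and Nnt, the mitochondrial transhydrogenase, changed by -1.62. Me2, a mitochondrial malic enzyme, rose by 1.02 and Nadk2, the mitochondrial NAD kinase, by 0.81 on the log2 scale. For selenoprotein synthesis, which Gpx1 and Gpx4 depend on, 1 of 7 tested genes was called higher and 6 lower, with a median of -0.37. Secisbp2, which binds the selenocysteine insertion element, rose by 0.30, whereas Sephs2, selenophosphate synthetase, and its relative Sephs1 changed by -0.52 and -0.51.

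Among the other peroxidases and superoxide dismutases, 3 of 10 genes passed the filter. Sod2, the mitochondrial superoxide dismutase, fell from 149 ± 3.51 to 78.0 ± 2.10 CPM (log2 change -0.93, adjusted p = 1.6e-12). Park7 changed by -0.65, and Ccs, the copper chaperone of Sod1, rose by 0.23. The call of Ccs was lost without Ctrl replicate 1 (adjusted p = 0.0546) and with library size alone (0.109). Gpx2, Gpx3, Gpx5, Gpx6, Gpx7, Gpx8 and Sod3 did not pass the filter. Of 14 tested genes of peroxisome biogenesis and import, the compartment of catalase, 3 were called higher and 5 lower, with a median of -0.08. Pex19, a carrier of peroxisomal membrane proteins, rose by 0.69, while Pex26, a peroxisomal membrane protein, and Pex13, of the docking complex, changed by -1.25 and -1.01.

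**Figure D3:**
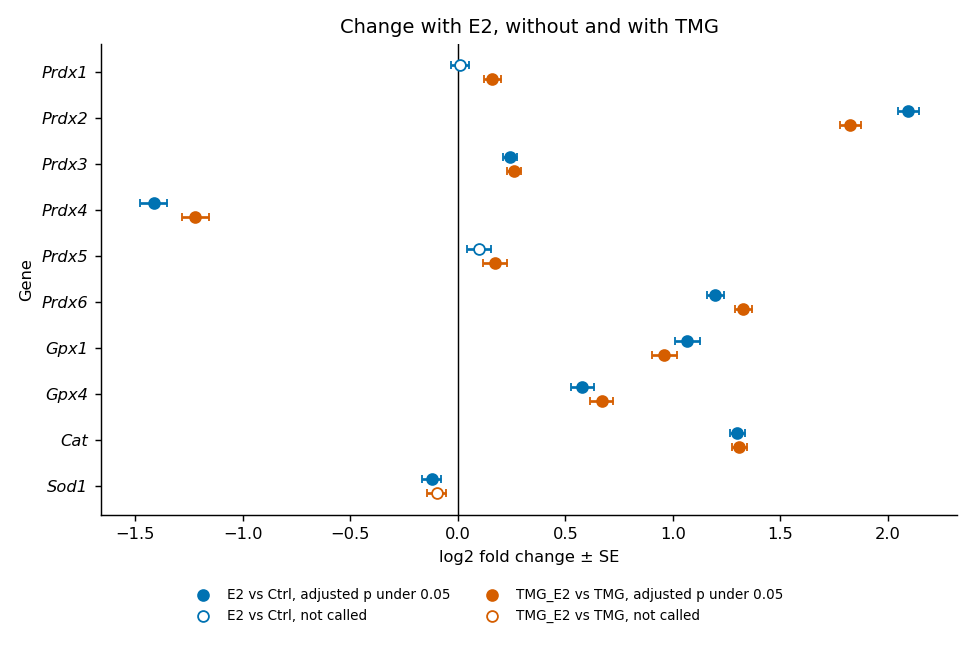
Log2 fold change ± SE with E2 for each of the 10 genes, in E2 vs Ctrl and in TMG_E2 vs TMG; filled points are called at an adjusted p under 0.05. Prdx2 lies furthest to the right, at 2.09 and 1.82, and Prdx4 furthest to the left, at -1.42 and -1.22.

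TMG_E2 vs TMG compares cells with and without E2 in the presence of TMG and shares no library with E2 vs Ctrl. Both comparisons use the spread estimated from all 12 libraries, so their p-values are not independent. Prdx2, Cat, Prdx6, Gpx1, Gpx4 and Prdx3 rose and Prdx4 fell. Prdx1 and Prdx5 were called higher by small amounts. In all, 8 genes were called higher and 1 lower, against 82.7% of all genes called (40.9% higher and 41.8% lower), with a median log2 change of 0.47 against -0.01 over all genes. On TMM-scaled CPM the groups were apart for 9 of the 10 (8 higher, 1 lower), against 81.8% of all genes (40.4% higher and 41.4% lower).

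Prdx2 measured 397, 391 and 379 CPM in the TMG libraries and 1307, 1350 and 1478 CPM in the TMG_E2 libraries. The ranges were far apart, with a log2 change of 1.82 ± 0.05 (adjusted p = 5.61e-16, edgeR). The log2 changes of Prdx6, Cat, Gpx1 and Gpx4 were 1.33, 1.31, 0.96 and 0.67, and all 4 were called. Prdx3 was called at 0.26, or 0.16 with library size alone (adjusted p = 0.000193, edgeR). Prdx4 measured 47.2, 53.4 and 47.3 CPM with TMG and 22.2, 19.9 and 21.3 CPM with both agents. It was lower in every TMG_E2 library, with a log2 change of -1.22 ± 0.06 (adjusted p = 4.72e-12, edgeR).

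Prdx1 measured 264, 280 and 272 CPM with TMG and 297, 294 and 321 CPM with both agents, a log2 change of 0.16 ± 0.04 (adjusted p = 0.00151, edgeR). The corresponding values of Prdx5 were 38.9, 38.4 and 38.8 against 42.8, 43.6 and 44.8 CPM, at 0.17 ± 0.06 (adjusted p = 0.00871, edgeR). Neither gene overlapped between the groups on this scale. With scaling by library size alone neither was called (Prdx1 0.06, adjusted p = 0.135, and Prdx5 0.08, adjusted p = 0.208, edgeR). On the deposited TPM neither mean was higher with both agents. Prdx1 was at 333 ± 6.92 in TMG and 328 ± 6.06 in TMG_E2, and Prdx5 at 115 ± 1.70 and 114 ± 2.40. Sod1 measured 258, 261 and 265 CPM with TMG and 229, 236 and 266 CPM with both agents. On this TMM-scaled measure TMG_E2 replicate 3, with the lowest scaling factor (0.9451), was as high as the TMG libraries. The other TMG_E2 libraries were below them. On the deposited TPM every TMG_E2 library (654.09 to 701.05) was below every TMG library (801.38 to 807.01). The log2 change of Sod1 was -0.10 ± 0.05 (adjusted p = 0.0516, edgeR). With the replicate number as a block it was called lower (-0.10, adjusted p = 0.0258), as it was without TMG_E2 replicate 3 (-0.16, adjusted p = 0.000297) and with library size alone (-0.20, adjusted p = 0.000254). Without TMG_E2 replicate 3, 10 of the 10 genes were called, 8 higher and 2 lower. In that setting 6822 of all genes were called, against 6841 with all 12 libraries.

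Of the 56 tested partner genes, 17 were called higher and 26 lower (76.8% in all, against 82.7% over all genes). Srxn1 and Gclc changed by 2.63 and 1.04 on the log2 scale, and Me2 by 1.21. Gsr, Sod2, Idh2 and Sephs1 changed by -0.65, -0.88, -2.02 and -0.61. All 7 were called.

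TMG vs Ctrl asked what the OGA inhibitor did without E2. Prdx2 alone of the 10 genes was called, 1.14-fold higher. The log2 change was above 0 for 9 of the 10 genes and below 0 for Prdx6, but apart from Prdx2 none passed the threshold. Over all genes, 5.15% were called (3.01% higher and 2.14% lower), and the median log2 change of the 10 was 0.09, against 0.0028 over all genes.

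Prdx2 measured 343, 346 and 333 CPM in Ctrl and 397, 391 and 379 CPM in TMG. Every TMG library was above every Ctrl library, and the log2 change was 0.19 ± 0.05 (adjusted p = 0.0238, edgeR). The value was between 0.17 and 0.21 in all 19 alternatives, but the call was lost in 5 of them. The adjusted p (edgeR) was 0.0716, 0.0598 and 0.137 without Ctrl replicates 1, 2 and 3, and 0.0975 and 0.0939 without TMG replicates 1 and 2. Without TMG replicate 3 the call was kept (0.0421). Gpx1 measured 657, 628 and 660 CPM in Ctrl and 703, 749 and 762 CPM in TMG. These ranges did not overlap either, and the log2 change of 0.19 ± 0.06 was as large as that of Prdx2 but was not called (adjusted p = 0.0734, edgeR). With the replicate number as a block it was called (0.0145, edgeR), where 675 of all genes were called, against 426. The deviations of same-numbered Ctrl and TMG libraries correlated at only 0.0729, 0.0251 and 0.166, although 5 of 6 libraries correlated best with their own number.

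Prdx3, with 296, 304 and 305 CPM in Ctrl, measured 321, 337 and 322 CPM in TMG. The log2 change of 0.11 ± 0.03 had an adjusted p of 0.0522 (edgeR), or 0.0334 with the replicate block. Cat, with 140, 141 and 142 CPM in Ctrl, measured 154, 151 and 151 CPM in TMG, at 0.11 ± 0.03 (adjusted p = 0.0906, edgeR). Without TMG_E2 replicate 3, which is not in this comparison but enters the shared estimate of the spread, 3 genes were called: Prdx2, Gpx1 (adjusted p = 0.0122) and Prdx3 (0.0279). In that setting 636 of all genes were called, against 426 with it. With DESeq2 3 of the 10 genes were called, against 426 of all 8273 genes. In edgeR 4 of the 10 had an unadjusted p under 0.05, while among all 8273 genes an unadjusted p of 0.0404 stood at rank 1428 from the smallest. The values of the 10 genes did not overlap between TMG and Ctrl for 5 of them, all higher, against 28.7% of all genes (15.2% higher). The remaining log2 changes were between -0.07 (Prdx6, 95% interval -0.16 to 0.01) and 0.10 (Prdx4, interval -0.02 to 0.22).

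With TMG alone, 3 of 56 tested partner genes were called (5.36%), against 5.15% over all genes. Glrx, a cytosolic glutaredoxin, rose from 34.2 ± 1.22 to 40.5 ± 2.23 CPM (log2 change 0.25, adjusted p = 0.0178), while no other of the 15 thioredoxin and glutaredoxin partners was called. Slc3a2, the partner chain of the cystine transporter, fell from 447 ± 13.1 to 377 ± 26.2 CPM (log2 change -0.24, adjusted p = 0.0167). Idh1, the cytosolic isocitrate dehydrogenase, was called higher at 0.17 (adjusted p = 0.0418). The call of Glrx was lost without Ctrl replicate 3 or TMG replicates 1 or 2 (adjusted p from 0.0667 to 0.111), and that of Slc3a2 without Ctrl replicates 2 or 3 or TMG replicates 1 or 2 (0.0516 to 0.0846). Idh1 was not called when any of the 9 Ctrl, TMG and E2 libraries was left out (0.0553 to 0.147), nor with DESeq2 (0.056), filterByExpr (0.0533) or library size alone (0.0621). The lists for selenoprotein synthesis, peroxisomes and other peroxidases had 0 genes called of 7, 14 and 3 (edgeR; 0 in each with DESeq2 as well, and 0, 2 and 0 at an unadjusted p under 0.05).

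TMG_E2 vs E2 asked what the inhibitor did while the cells differentiated. Prdx1, Prdx3, Prdx4, Gpx4 and Cat were called higher and none of the 10 lower. The largest of the 5 was Prdx4, at 1.23-fold, and the smallest Cat, at 1.08-fold. Over all genes 12.8% were called, 5.61% higher and 7.14% lower. The median log2 change of the 10 genes was 0.12, against 0.00039 over all genes. On TMM-scaled CPM the groups did not overlap for 5 of the 10, all higher, against 28.5% of all genes (13.5% higher).

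Prdx1 measured 251, 272 and 264 CPM in E2 and 297, 294 and 321 CPM in TMG_E2. Every TMG_E2 library lay above the E2 libraries, with a log2 change of 0.21 ± 0.04 (adjusted p = 0.00317, edgeR). It remained between 0.17 and 0.24 and called in all 19 alternatives. Its promoter window held TGACNNNGC, printed above, as did that of Sod1, which was not called here.

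Prdx4 measured 16.1, 17.8 and 17.6 CPM in E2 and 22.2, 19.9 and 21.3 CPM in TMG_E2. The TMG_E2 libraries were all above the E2 libraries, although both stayed well below the 45.1 CPM of the lowest Ctrl library. The log2 change was 0.30 ± 0.07 (adjusted p = 0.0105, edgeR), between 0.26 and 0.35 and called in all 19 alternatives. Prdx3 measured 362, 356 and 354 CPM in E2 and 391, 395 and 389 CPM in TMG_E2, with narrow ranges that did not overlap. On the deposited TPM the ranges of Prdx3 did overlap (381.8 to 394.77 in E2, 392.27 to 426.45 in TMG_E2). The log2 change was 0.13 ± 0.03 (adjusted p = 0.0121, edgeR), and the call was lost without E2 replicate 3 (0.0621) and with only the E2 and TMG_E2 libraries in the fit (0.08).

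Cat measured 343, 360 and 338 CPM in E2 and 380, 376 and 370 CPM in TMG_E2, at 0.11 ± 0.03 (adjusted p = 0.0286, edgeR). The ranges were separate on this scale but overlapped on the deposited TPM (194.72 to 206.53 in E2, 199.3 to 221.38 in TMG_E2). The call was lost in 7 of 19 alternatives. Among them were fits without Ctrl replicate 1 or 2 or E2 replicate 1 or 3, where the adjusted p was 0.051 to 0.15 (edgeR). Gpx4 measured 286, 284 and 276 CPM in E2 and 294, 309 and 348 CPM in TMG_E2. Here the highest value came from TMG_E2 replicate 3, and the log2 change of 0.17 ± 0.05 (adjusted p = 0.0484, edgeR) fell to 0.10 without it (0.156). The call was lost in 11 of 19 alternatives, among them when any Ctrl or E2 library or TMG replicate 3 was left out, where the adjusted p was 0.0584 to 0.159.

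Prdx2 was not called in TMG_E2 vs E2. It measured 1382, 1521 and 1456 CPM in E2 and 1307, 1350 and 1478 CPM in TMG_E2, and the ranges overlapped through TMG_E2 replicate 3. The log2 change was -0.08 ± 0.05 (adjusted p = 0.297, edgeR), and without that library -0.13 with a call (adjusted p = 0.0335). Gpx1 measured 1305, 1372 and 1394 CPM in E2 and 1291, 1432 and 1585 CPM in TMG_E2, which again overlapped, at 0.08 with a 95% interval from -0.04 to 0.20. Without TMG_E2 replicate 1 it was called (0.16, adjusted p = 0.0436). For Prdx5 the log2 change was 0.15 ± 0.06 (adjusted p = 0.0921, edgeR) with an E2 library and a TMG_E2 library both at 42.8 CPM; it was called without E2 replicate 2 (0.22, adjusted p = 0.0237). Prdx6 and Sod1 had 95% intervals from -0.03 to 0.14 and from -0.05 to 0.15. Without TMG_E2 replicate 3, 4 genes were called higher and 1 lower. In that setting 1160 of all genes were called, against 1055 with all 12 libraries.

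**Figure D4:**
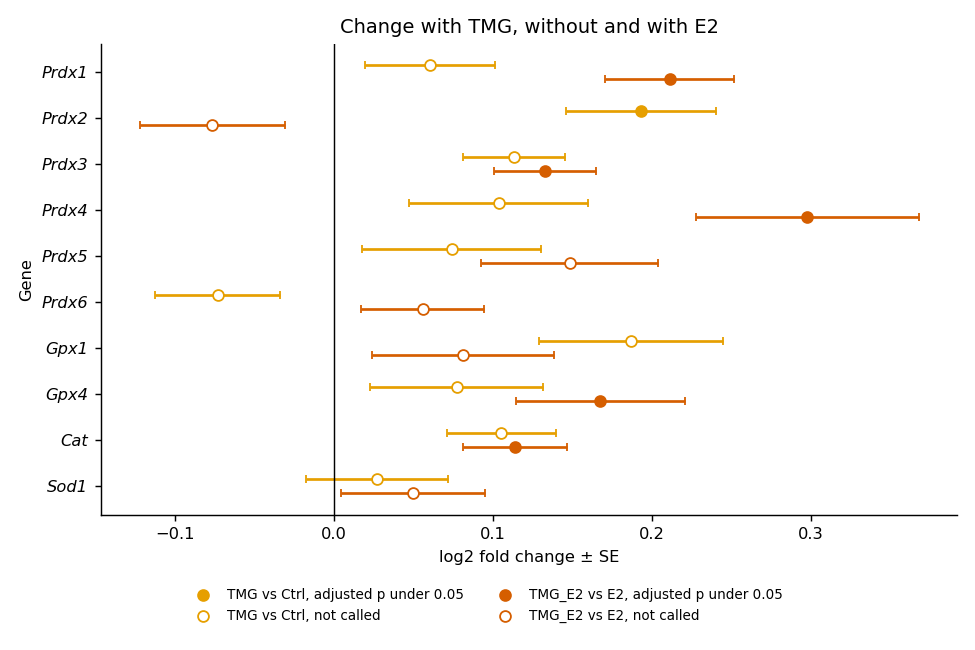
Log2 fold change ± SE with TMG for each gene, in TMG vs Ctrl and in TMG_E2 vs E2; filled points are called at an adjusted p under 0.05. The called points are Prdx2 at 0.19 without E2, and Prdx1, Prdx3, Prdx4, Gpx4 and Cat at 0.11 to 0.30 with E2.

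**Figure D5:**
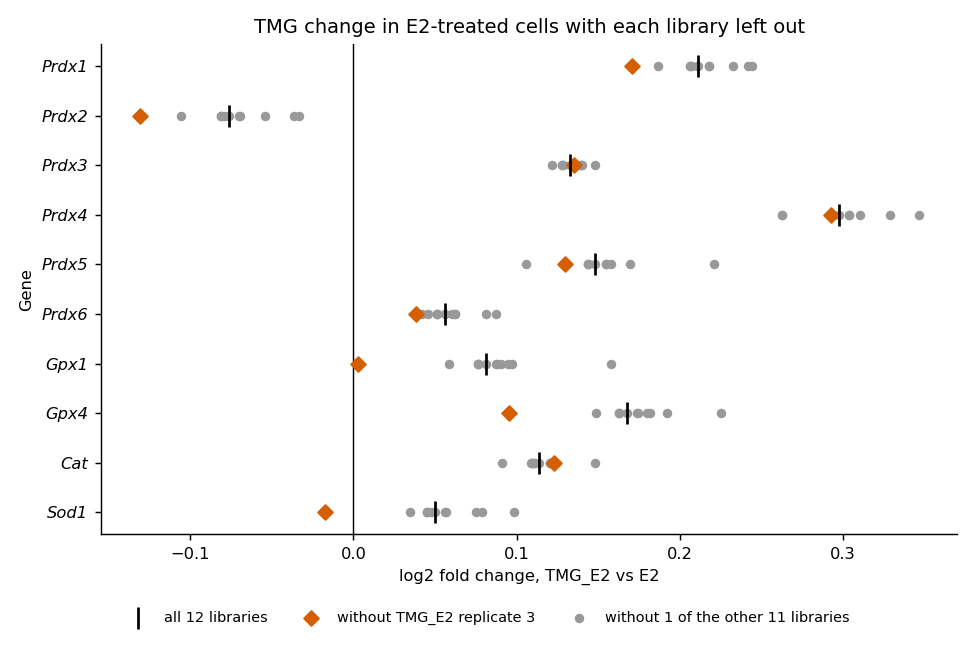
Log2 fold change of TMG_E2 vs E2 for each gene with all 12 libraries (bar), without TMG_E2 replicate 3 (diamond) and without each of the other 11 libraries (points). The diamonds lie lowest for Prdx1, Prdx2, Gpx1, Gpx4 and Sod1, and close to the bar for Prdx3, Prdx4 and Cat.

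In TMG_E2 vs E2, 8 of the 56 tested partner genes were called (14.3%, against 12.8% over all genes), 6 higher and 2 lower. Srxn1 rose from 103 ± 3.23 to 132 ± 1.56 CPM (log2 change 0.36, adjusted p = 2.21e-05). It was 1 of 2 genes called higher among 15 thioredoxin and glutaredoxin partners, with none lower. Gclm, the modifier subunit of the enzyme that starts glutathione synthesis, rose by 0.17 (adjusted p = 0.00967), and Idh1 rose from 75.0 ± 1.21 to 91.6 ± 4.84 CPM (0.29, adjusted p = 0.000513). The call of Gclm was lost without E2 replicate 3 (adjusted p = 0.065, edgeR) and with only the E2 and TMG_E2 libraries in the fit (0.063). Nadk, the cytosolic NAD kinase, and Pex26 were called lower, at -0.18 and -0.41. Pex19 was called higher at 0.13. This call was lost when any E2 library or Ctrl replicate 1 or 2 was left out. The same held for TMG replicate 1 or 3 and TMG_E2 replicate 2 or 3 (adjusted p over all these from 0.0501 to 0.159, edgeR). It was also lost with library size alone (0.0741), without a filter (0.0631) and with only the compared groups (0.0925). The lists for selenoprotein synthesis and other peroxidases had 0 genes called (edgeR and DESeq2), with 1 each at an unadjusted p under 0.05.

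The interaction asked whether the change with TMG differed between cells with and without E2. None of the 10 genes was called with edgeR, against 0.931% of all genes. With DESeq2 1 of them was called, against 99 of all 8273 genes. In edgeR 4 of the 10 had an unadjusted p under 0.05, while among all genes an unadjusted p of 0.047 stood at rank 881 from the smallest. The nearest to a call in edgeR was Prdx2, 0.19 with TMG alone and -0.08 with TMG in the presence of E2. The difference was -0.27 ± 0.07 (adjusted p = 0.0671, edgeR). Its adjusted p was 0.0147 with DESeq2, 0.0298 with a replicate block, 0.00994 without the filter on low counts, 0.0477 with scaling by library size alone and 0.00719 without TMG_E2 replicate 3, and the difference was between -0.32 and -0.22 in all 18 alternatives. The differences for Prdx4, Prdx1 and Prdx6 were 0.19, 0.15 and 0.13, with adjusted p-values of 0.438, 0.296 and 0.38 (edgeR). For the other 6 genes the value lay between -0.11 (Gpx1) and 0.09 (Gpx4). The comparisons with TMG share libraries with the comparisons with E2, so the values of a gene across them are not independent.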

How the data were processed

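Groups and replicate numbers were taken from the sample titles. Per the series design text and the submitters' processing notes, the authors used FastQC 0.11.2 for read quality, RSEM 1.2.22 on GRCm38 for quantification (the notes also list Bowtie2) and, under R 3.2.2, edgeR 3.14.0 for testing. The deposited expected counts are RSEM estimates per gene, and those of the 10 genes were whole in all libraries. The deposited TPM and FPKM values were scaled by the authors for length and depth and were not tested; FPKM gave the same order of the 10 genes.

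Expected counts were rounded and tested with edgeR 4.0.16 in R 4.3.3: CPM over 10 in at least 2 libraries, TMM, a mean per group, all 12 libraries in a quasi-likelihood fit, 5 comparisons, Benjamini-Hochberg adjustment over 8273 genes. The SE of a log2 change was computed from the F statistic. DESeq2 1.42.0, other scalings and filters, a replicate block, fits of the compared groups alone and leaving out each library were alternatives. Same-numbered libraries deviated together in E2 vs Ctrl (correlation 0.107 to 0.281), TMG_E2 vs E2 (0.16 to 0.251) and TMG_E2 vs TMG (0.139 to 0.545). Every one of these pairs was over 0.1. In TMG vs Ctrl the correlations were 0.0729, 0.0251 and 0.166, and whether the numbers pair these libraries is not settled. The pairing comes from the numbers in the titles and this check. Copies were sought with BLAST+ 2.17.0 in GENCODE M21 transcripts.

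Named genes are the 10 genes and, from each partner list, up to 2 called genes per direction with the smallest p in E2 vs Ctrl and up to 1 in each other comparison. A gene that this rule takes is not reported here. The 10 genes, the lists and the markers were chosen with earlier results of these data known. The planned likeness to other genes is not given, because the libraries fall into separate clusters by E2.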

Additional observations from a re-analysis of the deposited data

Results flagged for a closer look

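Slc3a2, the chain that pairs with the cystine transporter Slc7a11, was the only gene of the 10 enzymes and their partner lists whose change with TMG differed between cells with and without E2 by edgeR's test as set for all comparisons. This is 1 of 56 tested partner genes (1.79%), against 0.931% of all genes, so the count does not set the lists apart. With DESeq2 the difference was called for 1 of the 10 enzymes (Prdx2) and for 3 partner genes, Slc3a2 included, against 99 of all 8273 genes. Slc3a2 measured 447 ± 13.1 CPM in Ctrl, 377 ± 26.2 CPM in TMG, 343 ± 8.70 CPM in E2 and 373 ± 31.3 CPM in TMG_E2 (SD, n = 3). The log2 change with TMG was -0.24 without E2 (adjusted p = 0.0167) and 0.12 with E2 (adjusted p = 0.169). The difference between them was 0.3631 ± 0.08 (SE; adjusted p = 0.0398, edgeR). It kept its sign in all alternatives, but was not called with any of Ctrl replicates 1, 2 or 3, TMG replicates 1 or 2, E2 replicates 1, 2 or 3, or TMG_E2 replicate 2 left out, where the adjusted p ran from 0.0634 to 0.112.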

How the results depend on the processing

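Over the 10 genes and 5 comparisons, 881 of 940 values under an alternative kept their direction and side of the threshold, 30 lost a call, 23 gained a call and 6 changed sign. The sign changed for Prdx1 in E2 vs Ctrl with library size alone (-0.088), and over left-out libraries Prdx1 ran from -0.018 (without E2 replicate 2) to 0.040. Over left-out libraries, Sod1 ran from -0.017 to 0.098 in TMG_E2 vs E2 and from -0.044 to 0.075 in the interaction, both lowest without TMG_E2 replicate 3. Cat in the interaction ran from -0.014 (without E2 replicate 3) to 0.046, and was -0.00084 without TMG replicate 3. The causes were not tested. In TMG vs Ctrl, 2 of the 10 genes were called without a filter, 3 with a replicate block, 3 with DESeq2 and 4 with only the compared groups, where 675 (block) and 749 (compared groups) of all genes were called, against 426. Same-numbered Ctrl and TMG libraries correlated at 0.0729, 0.0251 and 0.166, and 5 of 6 libraries correlated best with their own number. The check used does not settle whether the numbers pair these libraries. In TMG_E2 vs E2, 3 of the 10 genes were called with library size alone and 2 with only the compared groups, where 472 of all genes were called, against 1055. In the interaction, 1 of the 10 genes (Prdx2) was called with library size alone, without a filter, with a replicate block and with DESeq2, and 178 (no filter), 48 (filterByExpr) and 171 (block) of all genes, against 77. The replicate block changed no other call of the 10 genes than those of Prdx3 and Gpx1 in TMG vs Ctrl, Sod1 in TMG_E2 vs TMG and Prdx2 in the interaction. Leaving out each library gave 7 to 8 of the 10 genes and 6549 to 6953 of all genes in E2 vs Ctrl, 0 to 3 and 196 to 636 in TMG vs Ctrl, 2 to 6 and 656 to 1160 in TMG_E2 vs E2, 9 to 10 and 6660 to 6822 in TMG_E2 vs TMG, and 0 to 1 and 18 to 161 in the interaction.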

Other observations

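Of the 16 nearest expressed genes on either side of the 8 enzyme genes called in E2 vs Ctrl, 13 were called in the direction of the enzyme gene, 2 in the opposite direction and 1 was not called; over all genes 41.5% were called higher and 41.2% lower. This tally was described after the values were seen and was not tested. Both neighbours were called in the direction of the enzyme gene for 5 of the 8: Prdx2 (Rnaseh2a and Junb, 0.90 and 0.51), Prdx3 (Eif3a 0.10 and Zfp950 0.27), Prdx6 (Klhl20 0.18 and Suco 0.75), Gpx1 and Prdx4. The GENCODE M21 spans of Rnaseh2a and Junb overlap Prdx2, whereas their RefSeq spans lie 24 and 2098 bases from it. Usp4 and Rhoa, the neighbours of Gpx1, had log2 changes of 1.19 ± 0.03 and 0.18 ± 0.03 (SE), both called higher. The neighbours of Gpx4 were called in opposite directions, Sbno2 at 0.70 and Polr2e at -0.59. Beside Cat, Apip was called higher at 0.46 and Nat10, an RNA acetyltransferase, lower at -1.04. Prdx1, which was not called, lies 2434 bases from Mmachc, which changed by -0.88 ± 0.07, while Akr1a1 on its other side changed by 0.27. Prdx5, also not called, lies 871 bases from Esrra (-0.85 ± 0.08, called lower). Beside Prdx4, Acot9 changed by -0.21 ± 0.06 at a distance of 26264 bases and Sms, spermine synthase, by -1.64 ± 0.05 at a distance of 2101579 bases. Distances are between RefSeq spans in GRCm38.p6.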
